A study of Mus musculus with 15 samples.

Results

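The enteroendocrine hormones and granins are 10 genes of hormone-producing cells in the gut lining, of which 9 encode proteins or peptides stored in secretory granules and 1, Tph1, a biosynthetic enzyme, and all 10 were found by symbol among the 78298 genes counted in every library. Chga and Chgb encode chromogranin A and chromogranin B, acidic granule proteins found across many endocrine cell types. Gcg encodes proglucagon, which gives glucagon-like peptides in the intestine, Cck encodes cholecystokinin, Gip glucose-dependent insulinotropic polypeptide, Sct secretin, Sst somatostatin, Nts neurotensin and Pyy peptide YY. Tph1 encodes tryptophan hydroxylase 1, the rate-limiting enzyme of serotonin synthesis outside the brain. Enteroendocrine cells are scattered, rare cells of the intestinal epithelium that arise from crypt stem cells through a short-lived progenitor marked by Neurog3, and they release hormones in response to nutrients. Hormone repertoires differ between enteroendocrine cells and along the gut, with Gip and Cck typical of the proximal and Gcg, Pyy and Nts of the more distal small intestine.

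Poly-A RNA of small intestinal organoids from C57BL/6J mice was sequenced in 5 conditions of 3 libraries each. All 15 libraries came from cultures carrying a lentiviral transgene driven by the weak, ubiquitous L30 promoter and a puromycin resistance gene. The control carried Halo-NLS, a V5-tagged HaloTag sent to the nucleus, and grew as organoids. The SOX9-Halo line carried Sox9 fused to HaloTag and V5 and the SOX9-mEGFP line carried Sox9 fused to mEGFP and V5, and each was sampled both as budding organoids, with crypt-like buds, and as spheroids, which are round cultures without buds. SOX9 is a transcription factor of crypt stem cells and Paneth cells. SOX9-Halo spheroids additionally carried H2B-mEGFP and SOX9-mEGFP spheroids H2B-mScarletI, each with its own resistance gene. Each line was a stable, initially polyclonal population under antibiotic selection, so that there was 1 line per tag, and several wells were pooled for each library. The study orders the conditions by passage number as Halo-NLS, SOX9-mEGFP budding, SOX9-Halo budding, SOX9-mEGFP spheroids and SOX9-Halo spheroids. Time in culture therefore cannot be told apart from transgene, line or shape in any comparison below. The histone tags cannot be told apart from shape. The replicates are given as biological, with no statement that they came from separate animals, so p-values measure the spread between these libraries.

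Reads on genes numbered between 28062722 and 40559766 per library, with a median of 33491297. Levels are given in CPM, counts per 1000000 of the effective library size, per library or as mean ± SD of 3 libraries. The level of Sox9 was 15.8 ± 6.91 CPM in the Halo-NLS control. It was 287 ± 81.7 CPM in SOX9-mEGFP and 186 ± 138 CPM in SOX9-Halo budding organoids, and 489.7 ± 223 and 399 ± 74.0 CPM in the corresponding spheroids. These reads were not separated into transgene and endogenous Sox9. A gene was called changed when the quasi-likelihood test of edgeR gave an adjusted p (Benjamini-Hochberg, over all genes tested) of at most 0.01, the fold change was at least 2 in either direction, and the mean normalised count was at least 10. All 10 members were among the 17560 genes tested. Halo-NLS replicate 1 stood apart in these counts of calls: without it, the number of genes called higher in SOX9-mEGFP budding organoids than in Halo-NLS rose from 350.0 to 1838. In bulk RNA, fewer enteroendocrine cells and less RNA of a gene per cell cannot be told apart.

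Positions are in GRCm39, the build of the counts, and each count covers the exons of the whole gene. Chga spans chr12:102520484-102531300 on the plus strand and Chgb chr2:132622464-132637904 on the plus strand, Gcg lies at chr2:62304873-62313997 and Cck at chr9:121315695-121324863, both on the minus strand, and Gip lies at chr11:95909127-95921657 on the plus strand. On the minus strand lie Sct at chr7:140858243-140859052, Sst at chr16:23707321-23711733, Nts at chr10:102317614-102326396, Pyy at chr11:101997502-101998658 and Tph1 at chr7:46294065-46321965. The counting ignored strand, and an lncRNA on the opposite strand shared 8.24% of the exonic bases of Chgb, while a pair of lncRNAs shared 7.66% and 5.06% of those of Cck. Reads in these stretches cannot be assigned to either gene.

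Promoter sequences from RefSeq, on the older build GRCm38.p6, were found for all 10 genes, as 12 windows of 250 bases before a start site. They were searched on both strands for the cAMP response element TGACGTCA, which binds CREB-family factors, for the TATA box TATAAA, and for the E-box CAGNTG, the class of site bound by bHLH factors such as NEUROG3 and NEUROD1. Shown as examples are the promoters that held 1 of the rarer motifs, the response element or the TATA box (Chgb, Sst, Gcg and Sct), and those of the members called between the SOX9 lines (Sct, Nts and Pyy). They run 5′ to 3′, with matches to any of the 3 motifs in capitals and coordinates in GRCm38.p6, for Chgb (chr2:132781392-132781641, plus strand), Sst (chr16:23890845-23891094, minus), Gcg (chr2:62483654-62483903, minus), Sct (chr7:141279134-141279383, minus), Nts (chr10:102490419-102490668, minus) and the downstream of a pair of start sites of Pyy (chr11:102107777-102108026, minus).
Chgb: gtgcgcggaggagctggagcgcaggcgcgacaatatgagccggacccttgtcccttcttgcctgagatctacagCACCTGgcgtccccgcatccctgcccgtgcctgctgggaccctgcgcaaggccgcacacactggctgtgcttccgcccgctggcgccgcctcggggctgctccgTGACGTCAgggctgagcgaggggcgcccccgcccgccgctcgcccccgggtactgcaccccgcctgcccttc
Sst: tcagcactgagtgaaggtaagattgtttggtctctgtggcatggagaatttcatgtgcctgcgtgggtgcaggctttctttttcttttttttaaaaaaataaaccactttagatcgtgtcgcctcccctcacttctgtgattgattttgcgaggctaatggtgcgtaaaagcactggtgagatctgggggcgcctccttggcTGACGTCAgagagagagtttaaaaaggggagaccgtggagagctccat
Gcg: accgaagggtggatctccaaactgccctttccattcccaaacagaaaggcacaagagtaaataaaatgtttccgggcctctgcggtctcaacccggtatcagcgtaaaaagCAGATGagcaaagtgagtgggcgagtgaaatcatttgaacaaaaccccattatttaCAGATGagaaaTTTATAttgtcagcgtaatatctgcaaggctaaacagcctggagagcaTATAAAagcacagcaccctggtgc
Sct: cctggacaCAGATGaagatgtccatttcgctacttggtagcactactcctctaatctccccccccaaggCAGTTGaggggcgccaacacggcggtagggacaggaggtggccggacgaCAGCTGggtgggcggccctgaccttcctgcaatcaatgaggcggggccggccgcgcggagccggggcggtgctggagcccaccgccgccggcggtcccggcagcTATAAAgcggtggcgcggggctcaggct
Nts: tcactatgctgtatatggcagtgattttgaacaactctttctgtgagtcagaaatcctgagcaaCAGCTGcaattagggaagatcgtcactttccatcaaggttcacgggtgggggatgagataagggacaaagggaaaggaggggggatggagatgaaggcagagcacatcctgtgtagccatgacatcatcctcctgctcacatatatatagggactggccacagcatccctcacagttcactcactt
Pyy: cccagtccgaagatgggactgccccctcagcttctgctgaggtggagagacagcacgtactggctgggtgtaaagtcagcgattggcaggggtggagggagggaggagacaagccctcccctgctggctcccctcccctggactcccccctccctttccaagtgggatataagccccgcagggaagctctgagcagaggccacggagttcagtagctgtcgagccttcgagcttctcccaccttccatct

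The cAMP response element was present in 2 of the 10 genes, Chgb from 72 to 65 and Sst from 48 to 41 bases before the start, against 1.546% of all 32851 RefSeq promoters of this length. A TATA box was present in 2 genes, Gcg from 24 to 19 with a second match on the other strand, and Sct from 28 to 23 bases before the start, against 12.37% of all promoters. An E-box was present in 7 of the 10 (Cck, Chga, Chgb, Gcg, Gip, Nts and Sct), against 44.82% of all promoters. No window of Pyy or Tph1, which have a pair each, held any of the 3 strings. A match is a string of letters in this window and was not tested for binding.

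The control organoids expressed all 10 genes. Chgb was read most, with 736, 475 and 199 CPM in Halo-NLS replicates 1 to 3, and Chga had 173, 241 and 90.6 CPM. Among the hormones, Gip had 104, 119 and 47.2 CPM and Cck 98.2, 84.2 and 30.8 CPM, the incretin and the satiety hormone of the proximal intestine. Tph1 followed with 23.9, 19.8 and 9.93 CPM, Gcg with 21.1, 16.0 and 4.76 CPM, and Sst with 12.7, 13.7 and 3.22 CPM. Sct, Nts and Pyy were the lowest, with 5.47 to 8.72 CPM for Sct, 1.54 to 3.74 CPM for Nts and 0.300 to 0.389 CPM for Pyy. Budding organoids of both SOX9 lines had the same granin at the top, with a mean of 428 ± 183 CPM of Chgb in SOX9-mEGFP and 411 ± 235 CPM in SOX9-Halo against 469.8 ± 269 CPM in Halo-NLS (SD, n = 3). Summed over the 10 genes, the level was 393 to 1181 CPM in Halo-NLS, 424 to 1076 CPM in SOX9-mEGFP budding and 251 to 1129 CPM in SOX9-Halo budding organoids. In spheroids the sum was 1.31 to 4.28 CPM for SOX9-mEGFP and 0.254 to 0.617 CPM for SOX9-Halo, so no spheroid library overlapped any organoid library.

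**Figure D1:**
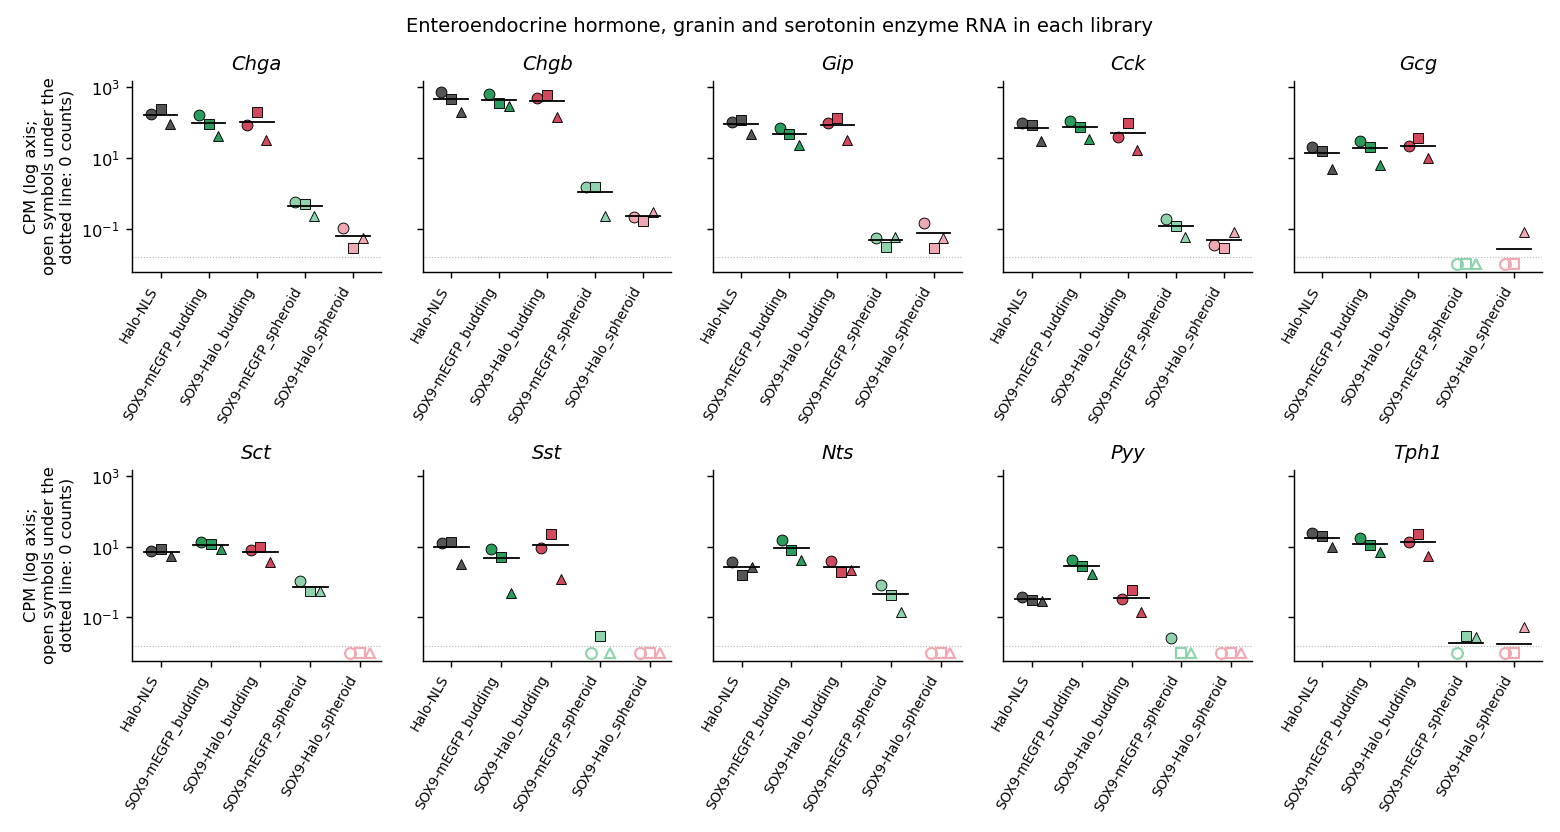
Level of each of the 10 genes in all 15 libraries, in CPM on a log scale, with a panel per gene, a symbol per library by replicate number, and a bar at the mean of each condition. Open symbols under the dotted line are libraries without a count. The 9 organoid libraries lie above the 6 spheroid libraries in every panel, and SOX9-mEGFP spheroids keep points for Sct and Nts where SOX9-Halo spheroids have none.

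Levels of different genes were compared as TPM, in which counts are divided by the length of all exons of a gene and then scaled to 1000000 per library. In Halo-NLS organoids Chgb had 339.9 ± 196 TPM and Gip 331 ± 154 TPM, which overlapped widely, followed by Chga with 77.0 ± 38.4, Cck with 38.6 ± 20.1, Sct with 32.7 ± 9.31 and Gcg with 26.9 ± 16.3 TPM (SD, n = 3). Tph1 had 8.47 ± 3.58, Sst 8.14 ± 4.99, Nts 5.61 ± 2.23 and Pyy 1.48 ± 0.231 TPM. The ranges of neighbours in this order did not overlap for Gip and Chga or for Nts and Pyy, and overlapped for every other pair. Secretin, a short transcript, therefore stood higher per length than its CPM places it. With the length of the canonical transcript, an alternative chosen after the long exon sums were seen, Gip (224 TPM) stood before Chgb (209 TPM) and Sst before Tph1 in Halo-NLS, while the other 6 kept their ranks. The share of Chga, whose exons sum to 6514 bp over all transcripts but to 1951 bp in the canonical transcript, was then 21.5% of the summed TPM of the 10 genes in place of 9.06%, and its rank was 3 with either length.

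The makeup of the hormone RNA was led by Chgb and Gip in all 3 organoid conditions, with more Gcg in SOX9-Halo and more Pyy, Nts and Sct in SOX9-mEGFP budding organoids than in Halo-NLS. Chgb gave 37.9%, 37.5% and 45.2% of the summed TPM in Halo-NLS, SOX9-Halo and SOX9-mEGFP budding organoids, and Gip 38.7%, 40.4% and 24.3% (means of 3 libraries). The share of Gip in SOX9-mEGFP budding organoids, from 21.0% to 27.6%, lay below that of every Halo-NLS library, from 33.0% to 42.4%. The share of Gcg was 2.17% to 3.52% in Halo-NLS, 4.73% to 6.61% in SOX9-Halo, which did not overlap, and 3.03% to 6.13% in SOX9-mEGFP budding organoids. Chga gave 9.06% in Halo-NLS, 5.67% in SOX9-Halo and 6.08% in SOX9-mEGFP budding organoids, with ranges that overlapped. Sct gave 2.94% to 5.88% in Halo-NLS and 3.57% to 5.85% in SOX9-Halo, both below the 6.07% to 9.43% of SOX9-mEGFP budding organoids. Tph1 gave 0.909% to 1.11% in Halo-NLS, above the 0.756% to 0.883% of SOX9-Halo and the 0.795% to 0.846% of SOX9-mEGFP budding organoids. With the canonical transcript length these ranges overlapped, at 0.925% to 1.15%, 0.850% to 0.985% and 0.858% to 0.964%. The share of Pyy was 0.201% in Halo-NLS, from 0.134% to 0.318%, and 0.202% in SOX9-Halo budding organoids, from 0.173% to 0.222%. In SOX9-mEGFP budding organoids it was 1.85%, from 1.78% to 1.90%, a narrow range above all 6 other libraries. The share of Nts was 2.23% to 3.28% in SOX9-mEGFP budding organoids against 0.323% to 1.36% in Halo-NLS and 0.338% to 1.61% in SOX9-Halo budding organoids. These shares are a description of the same libraries as the tests below and were not tested on their own.

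Within each organoid condition the members moved together from library to library. Replicate 3 had the lowest level of its condition in all 3 organoid conditions for 9 of the 10 genes, the exception being Nts, for which this held in 1 condition. Of all 17560 genes tested, 1506 (8.58%) had this pattern. After the mean of each condition was removed from log2 CPM, the 45 pairs of members had correlations from 0.272 to 0.982 over the 9 organoid libraries, with a median of 0.919. These correlations share libraries, depth and replicate number, and are given as a description. Over 11039 genes, same-numbered libraries of these conditions deviated together for some replicate numbers and not for all 3. For replicates 1 to 3 the correlations were 0.470, 0.817 and -0.056 between Halo-NLS and SOX9-Halo budding organoids. They were 0.039, 0.357 and 0.739 between the budding lines, and -0.049, 0.270 and 0.235 between Halo-NLS and SOX9-mEGFP budding organoids. The labels do not say whether a replicate number marks a shared batch, and this was not tested.

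Genes that act earlier in the lineage had other orders. Neurog3, the transcription factor that starts the endocrine programme, had 11.6, 15.4 and 35.1 CPM in Halo-NLS replicates 1 to 3. It had 4.24, 6.13 and 12.4 CPM in SOX9-mEGFP and 11.0, 13.3 and 13.8 CPM in SOX9-Halo budding organoids, so that replicate 3 was the highest in all 3 conditions. Insm1, a zinc finger factor of endocrine differentiation, was highest in replicate 3 of 2 conditions. Genes of mature cells followed the hormones: Pcsk1, the convertase that cuts prohormones, had 18.2, 13.8 and 5.09 CPM in Halo-NLS, and together with the granin Scg2 and the peptide genes Tac1 and Ghrl was lowest in replicate 3 of all 3 conditions. After the same centring, correlations of the 10 members with Neurog3 ran from -0.877 to -0.522 and none was above 0. Those with Insm1 ran from -0.721 to -0.102, with a median of -0.253. Those with Neurod1, a factor downstream of Neurog3, ran from -0.155 to 0.403, with 5 of 10 above 0, so the inverse order of Neurog3 was not shared by all genes that act earlier in the lineage. These progenitor and mature genes were chosen after values had been seen.

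**Figure D2:**
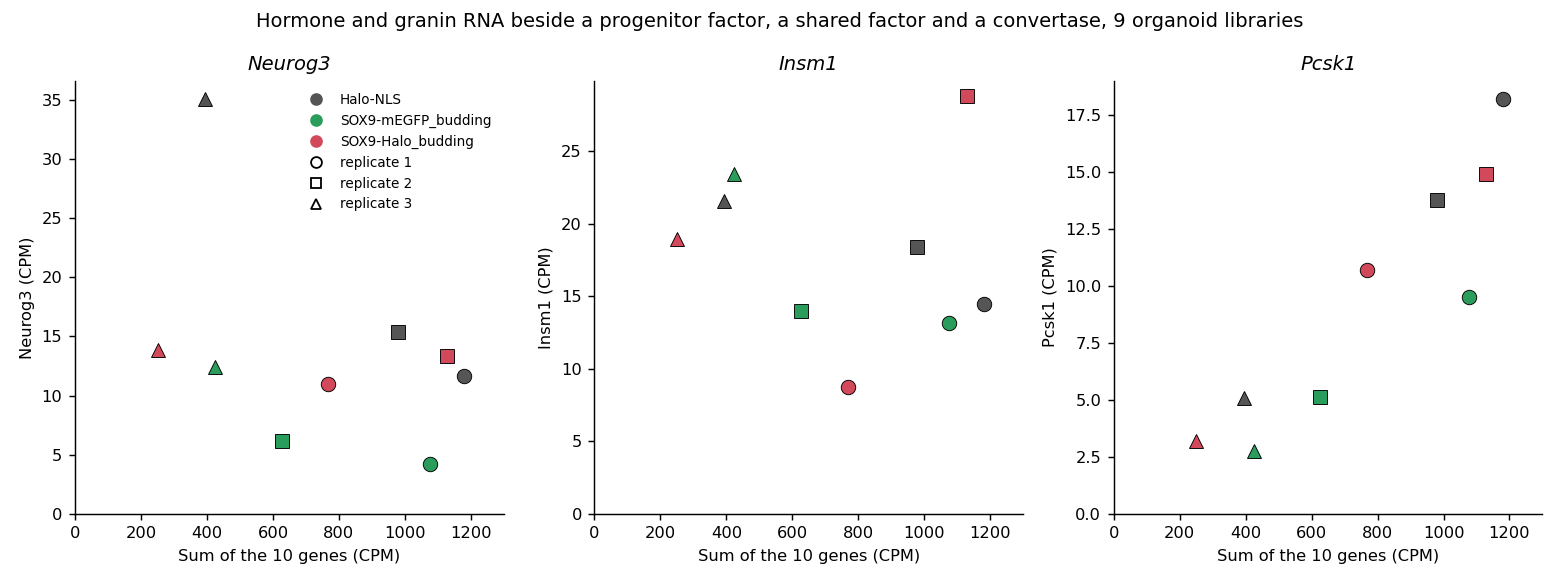
Levels of Neurog3, Insm1 and Pcsk1 in CPM against the summed CPM of the 10 members, a symbol per organoid library, coloured by condition and shaped by replicate. The replicate 3 libraries lie at the left of each condition, with sums of 251 to 424 CPM, where Neurog3 is highest and Pcsk1 lowest within the condition.

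The comparison of SOX9-mEGFP budding organoids with Halo-NLS organoids asks what goes with the tagged Sox9 transgene, or with its later passage, while cultures still bud. Of the 10 members, 1 passed the test, Pyy. Pyy had 10, 9 and 8 counts (0.389, 0.308 and 0.300 CPM) in Halo-NLS and 114, 89 and 73 counts (4.13, 2.75 and 1.69 CPM) in SOX9-mEGFP budding organoids. Every SOX9-mEGFP library was above every control library, and the rise was 3.09 on the log2 scale (SE 0.51, adjusted p = 0.00319, Benjamini-Hochberg, quasi-likelihood test of edgeR). Pooled over libraries the ratio was 8.10, with a 95% counting interval of 5.45 to 12.5 (exact, conditional on the total). Over all genes, 1.99% were called higher and 0.763% lower. The call of Pyy was lost when Halo-NLS replicate 2 (log2 fold change 3.04, adjusted p = 0.0179), Halo-NLS replicate 3 (3.02, adjusted p = 0.0166) or SOX9-mEGFP budding replicate 1 (2.73, adjusted p = 0.0127) was left out of the edgeR fit, and was kept without Halo-NLS replicate 1.

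Nts, the neurotensin gene, had 3.74, 1.54 and 2.66 CPM in Halo-NLS and 15.8, 7.83 and 4.20 CPM in SOX9-mEGFP budding organoids. These groups did not overlap either, as for 32.5% of all genes tested, with a log2 difference of 1.81 (SE 0.57, edgeR adjusted p = 0.0498) that did not reach the threshold of 0.01. Sct had 7.44, 8.72 and 5.47 CPM against 13.9, 12.1 and 8.47 CPM, groups that overlap by 1 library, with a log2 difference of 0.67 (SE 0.37, edgeR adjusted p = 0.209). Gip had 104, 119 and 47.2 CPM against 69.7, 49.0 and 23.4 CPM, with a log2 difference of -0.93 (SE 0.48, edgeR adjusted p = 0.182). The other 6 members had log2 differences between -1.06 for Sst and 0.47 for Gcg, and the granin Chgb was at -0.14.

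In SOX9-Halo budding organoids none of the 10 genes was called against Halo-NLS. The calls numbered 0 by edgeR and 0 by DESeq2, the edgeR test gave an unadjusted p under 0.05 for 0 members, and 0 members had groups that did not overlap. Pyy had 0.332, 0.580 and 0.145 CPM, within and around the control's range, Nts 3.86, 1.91 and 2.18 CPM, Sct 7.94, 9.63 and 3.78 CPM, and Chga 87.6, 203 and 31.5 CPM. The log2 differences ran from -0.65 for Chga to 0.68 for Gcg, with edgeR adjusted p from 0.419 to 0.994. With a SE of up to 0.93 on the log2 scale, differences of over 2-fold are not excluded: over the alternatives run, Chga ranged from -1.497 to -0.21 and Cck from -1.35 to -0.051. Over all genes, 1.26% were called lower, 2.49% higher, and 29.7% did not overlap.

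Between the lines in their budding state, Pyy was lower in SOX9-Halo than in SOX9-mEGFP, by 3.00 on the log2 scale (SE 0.49, adjusted p = 0.00935, Benjamini-Hochberg, quasi-likelihood test of edgeR), and all 3 libraries of each line lay apart. The pooled ratio of SOX9-mEGFP to SOX9-Halo was 7.63, with a 95% counting interval of 5.44 to 11.0. This was the single member called, where 0.165% of all genes were called lower and 0.290% higher. The call did not hold when only the 6 libraries compared were fitted (log2 fold change -2.98, adjusted p = 0.108) or when size factors of the RLE kind were used (-3.01, adjusted p = 0.0105), nor in edgeR fits without SOX9-Halo budding replicate 1 (adjusted p = 0.0630) or 3 (adjusted p = 0.0385) or without SOX9-mEGFP budding replicate 1 (adjusted p = 0.0422) or 2 (adjusted p = 0.0358). Nts also had groups that did not overlap, as for 12.0% of all genes, at -1.80 (SE 0.56, edgeR adjusted p = 0.24). Gip, the incretin gene, was at 0.89 (SE 0.48, edgeR adjusted p = 0.728).

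**Figure D3:**
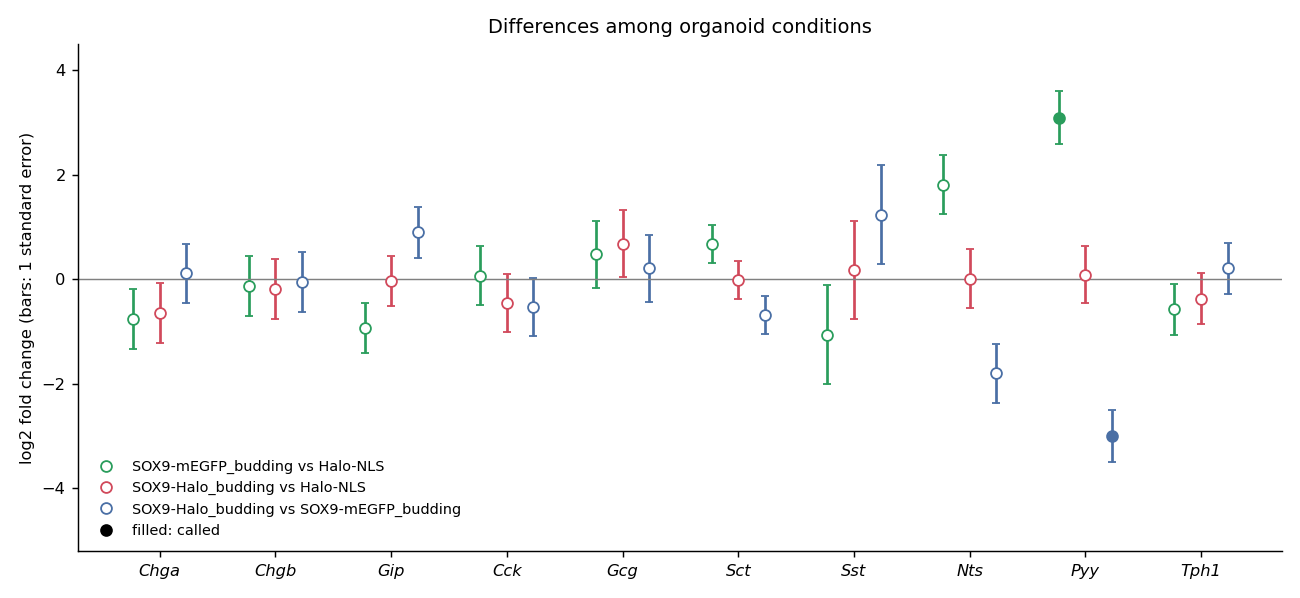
Log2 fold changes of the 10 members between organoid conditions, as points with bars of 1 SE from the edgeR fit, and filled points where the gene was called. Pyy is called in both comparisons that involve SOX9-mEGFP budding organoids, while the members of SOX9-Halo budding organoids lie between -0.65 and 0.68 from Halo-NLS.

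The comparison of spheroids with organoids asks what accompanies the loss of buds, and all 10 members were lower in SOX9-mEGFP spheroids than in Halo-NLS organoids, where 12.1% of all genes were called lower and 15.3% higher, and where the 3 libraries of each condition did not overlap for any member and for 56.5% of all genes. Chga, with 2420 to 7036 counts in the control libraries, had 22, 17 and 8 counts in SOX9-mEGFP spheroids. That is a log2 fold change of -8.57 (SE 0.82, adjusted p = 1.37e-06, Benjamini-Hochberg, quasi-likelihood test of edgeR) and a pooled ratio of 386 (95% counting interval 290.3 to 526) in favour of the control. Chgb had 59, 50 and 8 counts against 5300 to 18905, a log2 fold change of -8.74 (SE 0.81, edgeR adjusted p = 1.03e-06) and a pooled ratio of 425 (354.5 to 514). Gip had 2, 1 and 2 counts against 1260 to 3491 and a pooled ratio of 1937 (829.6 to 5967), with a log2 fold change of -10.80 (SE 0.82, edgeR adjusted p = 1.7e-07).

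Hormones that were well read in the control were close to 0 in these spheroids. Gcg had no count in any SOX9-mEGFP spheroid library against 127 to 541 in the controls, so it was at least 494-fold higher in Halo-NLS (floor of 3 counts over the group). Sst had 0, 1 and 0 counts against 86 to 400, and Tph1 0, 1 and 1 counts against 265 to 613. Cck had 7, 4 and 2 counts against 821 to 2521, a pooled ratio of 583 (340.5 to 1095). For Sst the interval of the pooled ratio of 1061 runs from 190 to 41977, as 1 read stands for the spheroids. Counting intervals and floors use counts summed over the libraries of a group, so they cover counting error only and leave out the spread between libraries. The reads also carry no molecular identifiers.

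Secretin and neurotensin were the members with the smallest changes in this comparison. Sct had 40, 19 and 20 counts (1.06, 0.567 and 0.568 CPM) in SOX9-mEGFP spheroids, below every control library by a pooled ratio of 9.78 (7.73 to 12.5), with a log2 fold change of -3.29 (SE 0.41, edgeR adjusted p = 3.76e-05). Nts had 31, 14 and 5 counts (0.820, 0.418 and 0.142 CPM), a pooled ratio of 5.54 (4.05 to 7.69) and a log2 fold change of -2.50 (SE 0.63, edgeR adjusted p = 0.00543). Its call was lost in edgeR fits without Halo-NLS replicate 1 (-2.16, adjusted p = 0.0167) or 3 (adjusted p = 0.0142), or without SOX9-mEGFP spheroid replicate 2 (adjusted p = 0.0232) or 3 (-2.09, adjusted p = 0.0208). Pyy, already low in the control, had 1, 0 and 0 counts and a pooled ratio of 35.3 (5.81 to 1443). What was left of the hormone RNA thus had another makeup: Sct gave 61.5% of the summed TPM of the 10 genes in SOX9-mEGFP spheroids, from 51.5% to 75.7%, Nts 16.1% and Chgb 13.3%, from 46 to 162 counts per library.

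Against budding organoids of its own line, the SOX9-mEGFP spheroids again had all 10 members called lower, where 7.86% of all genes were called lower and 8.53% higher, and again no member's groups overlapped (46.0% of all genes). The log2 fold change was -7.81 for Chga, -8.61 for Chgb, -9.87 for Gip and -9.22 for Cck. Pyy, the gene called higher in the budding organoids of this line, had 114, 89 and 73 counts there and 1, 0 and 0 in the spheroids, a pooled ratio of 285 (95% counting interval 50.8 to 11314). Sct was at -3.96 (SE 0.42, adjusted p = 1.47e-05, Benjamini-Hochberg, quasi-likelihood test of edgeR), a ratio of 14.9 (11.9 to 19.0), and Nts at -4.31 (SE 0.65, edgeR adjusted p = 0.000239), a ratio of 18.0 (13.5 to 24.5). Sst, at -8.49 (SE 1.72, edgeR adjusted p = 0.00216), lost its call when any 1 of the 3 spheroid libraries was left out (edgeR adjusted p from 0.0121 to 0.0142).

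SOX9-Halo spheroids held still fewer hormone reads, and all 10 members were lower than in Halo-NLS organoids and lower than in SOX9-Halo budding organoids, with 15.2% and 14.7% of all genes called lower in these comparisons and 13.6% and 10.5% higher. No member's groups overlapped in either, as for 54.8% and 52.8% of all genes. The 10 genes together gave 14, 9 and 23 counts in the 3 SOX9-Halo spheroid libraries, against 10504 to 30319 in Halo-NLS and 8622 to 38943 in SOX9-Halo budding organoids. Chgb had 6, 6 and 11 counts and Chga 3, 1 and 2 counts. The pooled ratio of Halo-NLS to these spheroids was 2051 for Chgb (95% counting interval 1367 to 3236) and 2870 for Chga (1318 to 7822).

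Among the hormones of SOX9-Halo spheroids, 4 had no count in any library: Sct, Sst, Nts and Pyy. They were at least 244-fold (Sct), 336-fold (Sst), 87.5-fold (Nts) and 11.2-fold (Pyy) higher in Halo-NLS organoids, with the floor of 3 counts over the group. Gcg had 0, 0 and 3 counts, Cck 1, 1 and 3, Gip 4, 1 and 2, and the serotonin enzyme gene Tph1 0, 0 and 2. The fold change in the edgeR fit ran from -11.37 for Chga and Sst to -6.49 for Pyy on the log2 scale, with adjusted p from 9.15e-08 to 0.000495. These fitted values of genes at 0 depend on the prior count of the fit and are no bounds. Against SOX9-Halo budding organoids the log2 fold changes ran from -11.55 (Sst) to -6.58 (Pyy), with edgeR adjusted p from 1.06e-07 to 0.000402. Both spheroid comparisons with Halo-NLS share the same 3 control libraries.

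**Figure D4:**
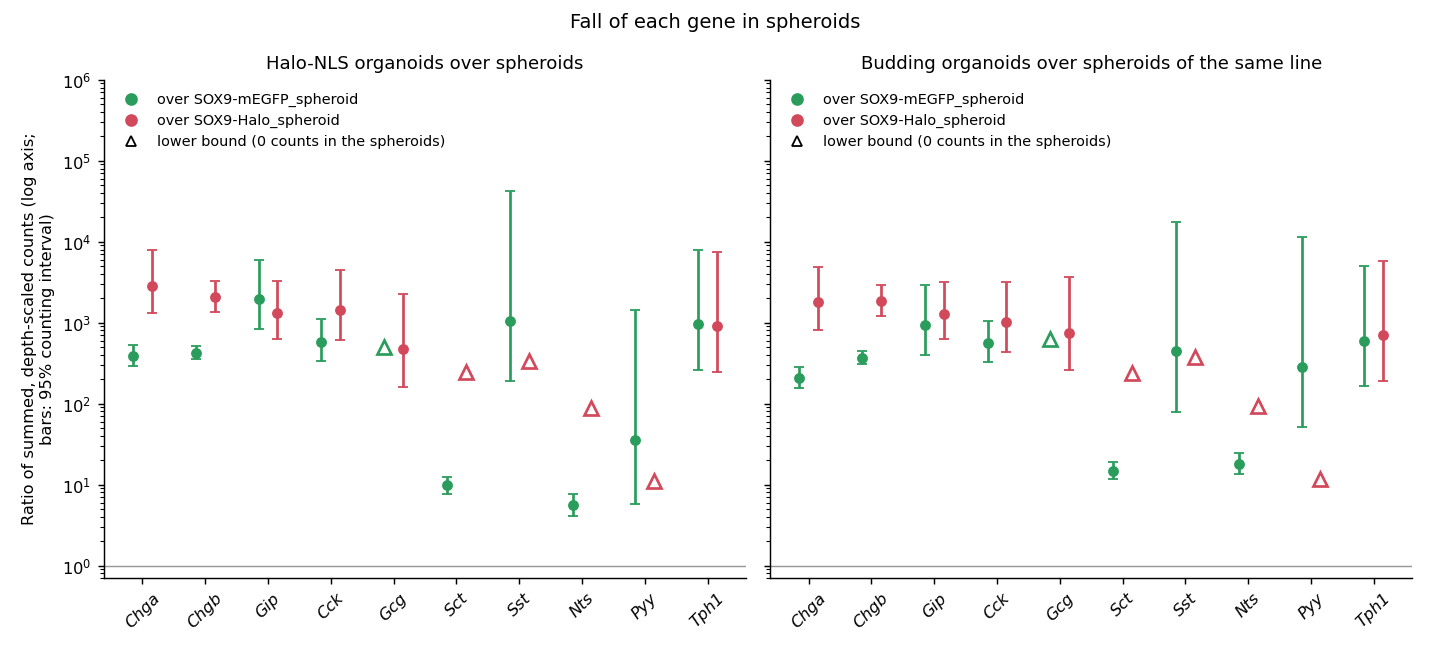
Ratios of organoid to spheroid counts of each member, summed over 3 libraries and scaled to depth, on a log axis, with bars for the 95% counting interval and open triangles for lower bounds where spheroids had no count. The left panel sets Halo-NLS and the right panel budding organoids of the same line over the spheroids, and Sct and Nts of SOX9-mEGFP spheroids have the lowest ratios with a count, at 9.78 and 5.54 on the left.

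As a group, the members had a median log2 fold change of -8.94 in SOX9-mEGFP spheroids against Halo-NLS (-8.85 with genes at 0 set to their bound) where the median of all genes tested was 0.030. In SOX9-Halo spheroids against Halo-NLS the median was -10.32 (-9.15 with bounds), where that of all genes was -0.011. None of the alternative settings ended a call of Chga, Chgb, Gcg, Cck, Gip, Sct or Tph1 in any of the 4 comparisons of spheroids with organoids.

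The 2 kinds of spheroids differed in secretin and neurotensin. Sct had 40, 19 and 20 counts in SOX9-mEGFP spheroids and 0 in all 3 SOX9-Halo spheroid libraries, at least 25.0-fold higher in SOX9-mEGFP (fitted log2 difference -7.63 as SOX9-Halo minus SOX9-mEGFP, SE 0.92, adjusted p = 4.64e-05, Benjamini-Hochberg, quasi-likelihood test of edgeR). Nts had 31, 14 and 5 counts against 0 in all 3, at least 15.8-fold higher (-6.97, SE 1.44, edgeR adjusted p = 0.00309). These were 2 of the 10 members, where 9.56% of all genes were called lower in SOX9-Halo and 3.59% higher. The call of Nts was lost in edgeR fits without SOX9-Halo spheroid replicate 2 (adjusted p = 0.0118) or 3 (adjusted p = 0.0124) or without SOX9-mEGFP spheroid replicate 1 (adjusted p = 0.0113). The spheroid lines also differ in their histone tag and its resistance gene, and SOX9-Halo spheroids come later in the study's order by passage. These differences cannot be told apart from the tag on Sox9.

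Chga had 22, 17 and 8 counts in SOX9-mEGFP and 3, 1 and 2 in SOX9-Halo spheroids, groups that did not overlap, as for 48.6% of all genes, with a pooled ratio of 7.43 (95% counting interval 3.17 to 21.3). Its log2 difference of -2.80 (SE 1.08, edgeR adjusted p = 0.0756) did not pass the threshold, and passed it with a block for the replicate number (-2.77, adjusted p = 0.00952) and by DESeq2 (-2.84, adjusted p = 0.00913). Chgb, at -2.25 (SE 0.81, edgeR adjusted p = 0.0552), passed by DESeq2 alone (adjusted p = 0.0096). Its SOX9-mEGFP counts of 59, 50 and 8 overlap the 6, 6 and 11 of SOX9-Halo. Cck, at 7 counts or fewer in every spheroid library, had a pooled ratio of SOX9-mEGFP to SOX9-Halo of 2.47 (0.825 to 8.84), and Gip, at 4 or fewer, of 0.678 (0.170 to 2.48), so differences were not detectable at this depth. For Gcg, Sst, Pyy and Tph1 both groups were at or under 3 counts, and no ratio is given.

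The change from budding organoid to spheroid differed between the lines for Sct. The change of SOX9-Halo minus that of SOX9-mEGFP was -6.94 on the log2 scale (interaction term,  SE 1.09, adjusted p = 0.000823, Benjamini-Hochberg, quasi-likelihood test of edgeR), a fitted value that rests on a group at 0. Sct stayed called in the interaction in every alternative run, with values from -7.24 to -6.35. Over all genes, 5.56% had a negative and 1.81% a positive interaction by the same rule. Nts had an interaction of -5.17 (SE 1.77, edgeR adjusted p = 0.0781) and did not pass, so a difference between the lines in its change was not shown, and the other 8 members had adjusted p of at least 0.159.

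Genes that act around the members were examined as 8 lists. Of each list the 3 genes of highest mean normalised count are named by rule, and any other gene named here was chosen after its values were seen. Over all genes, 12.1% were called lower and 15.3% higher in SOX9-mEGFP spheroids against Halo-NLS. In SOX9-Halo spheroids these shares were 15.2% and 13.6%. Single calls higher within a list are near or below these shares and are not read as particular to it. Transcription factors of the endocrine lineage came first in the pathway: of 18 genes, all tested, 12 were called lower and 1 higher in SOX9-mEGFP spheroids against Halo-NLS, and 13 lower and 1 higher in SOX9-Halo spheroids. Their median log2 fold changes were -4.54 and -6.62 (-4.42 and -5.41 with bounds). Insm1 had 1485 counts over the Halo-NLS libraries, 103 in SOX9-mEGFP and 1 in SOX9-Halo spheroids, pooled ratios of 18.8 (95% counting interval 15.4 to 23.2) and 1839 (329.6 to 72691). Neurog3 had 1684, 54 and 1 counts, ratios of 40.7 (31.1 to 54.4) and 2086 (374 to 82426). The forkhead factor genes Foxa1 and Foxa2, which many gut epithelial cells express, were not among those that fell: Foxa1 had a log2 fold change of 1.12 (edgeR adjusted p = 0.0105) in SOX9-mEGFP spheroids and rose by 1.43 (edgeR adjusted p = 0.00216) in SOX9-Halo spheroids, and Foxa2 was at 0.09 and -0.14. Between the spheroids, Neurog3 (-5.23) and Insm1 (-6.15) were lower in SOX9-Halo, as was Etv1.

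Of the other gut peptides, 7 of 14 genes were tested, with 3 lower and 2 higher in SOX9-mEGFP spheroids and 4 lower and 1 higher in SOX9-Halo spheroids against Halo-NLS. Tac1, which encodes substance P of enterochromaffin cells, had 1686 counts over Halo-NLS, 4 in SOX9-mEGFP spheroids, a pooled ratio of 550.3 (214.5 to 2022), and 0 in SOX9-Halo spheroids, at least 696-fold. Nucb2, whose product nucleobindin 2 is made in many cell types, rose by 4.31 and 4.59 on the log2 scale. Adm, the adrenomedullin gene, also made outside endocrine cells, rose by 2.21 (edgeR adjusted p = 0.00962) in SOX9-mEGFP spheroids and was at 2.04 (edgeR adjusted p = 0.0146) in SOX9-Halo spheroids. Ghrl, the ghrelin gene, and Tac1 fell in both.

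Of the other granins and granule partners, 8 of 9 were tested, and 5 and 6 were called lower and none higher in the spheroid comparisons with Halo-NLS. Scg2, the secretogranin II gene, had 460 counts over Halo-NLS, 9 in SOX9-mEGFP spheroids, a ratio of 66.7 (34.8 to 147), and none in SOX9-Halo spheroids, at least 189.9-fold. Vgf was at -2.17 (edgeR adjusted p = 0.0169) and -3.57 (edgeR adjusted p = 0.00121), and Ptprn2, a granule membrane protein gene, at -1.78 (edgeR adjusted p = 0.0122) and -8.43, so both passed in SOX9-Halo spheroids and not in SOX9-mEGFP spheroids. The difference between the spheroids was called for Ptprn2 and not for Vgf.

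Enzymes that process prohormones did not move as one group. Of 9 genes 7 were tested, with 2 lower and 4 higher in SOX9-mEGFP spheroids and 3 lower and 3 higher in SOX9-Halo spheroids against Halo-NLS. Pcsk1, the convertase of endocrine granules, had 1007 counts over Halo-NLS, 18 in SOX9-mEGFP spheroids, a ratio of 73.0 (46.0 to 124), and 0 in SOX9-Halo spheroids, at least 416-fold. Pcsk5 was at -5.86 and -10.69, and Pcsk6, which processes growth factors, rose by 1.95 and 2.24. Furin, the convertase that most cells express, was at -0.47 (edgeR adjusted p = 0.269) and -0.44 (edgeR adjusted p = 0.31). Cpe, the carboxypeptidase that trims peptide hormones, had a mean of 27.5 CPM in Halo-NLS, 139 CPM in SOX9-mEGFP and 9.62 CPM in SOX9-Halo spheroids (n = 3 each). It rose by 2.33 (SE 0.36, edgeR adjusted p = 0.000102) in the first and fell by 1.52 (SE 0.35, edgeR adjusted p = 0.00228) in the second, and its interaction was -3.87 (SE 0.50, edgeR adjusted p = 8.21e-05).

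Exocytosis and vesicle genes numbered 16, all tested, with 9 lower and 1 higher in SOX9-mEGFP spheroids and 10 lower and 1 higher in SOX9-Halo spheroids, and medians of -1.94 and -2.08. Rph3al, a Rab effector of secretory granules, was at -1.95 and -2.11 and was called in both, while the vesicle genes Rab3d (0.12 and -0.56) and Vamp2 (0.22 and 0.30) were not called. Of the serotonin genes 10 of 12 were tested, with 6 and 7 lower and none higher. Maoa, which breaks serotonin down, was at -3.75 and -3.89, Spr, which makes the hydroxylase cofactor, at -1.07 and -1.57, Ddc, the decarboxylase after Tph1, at -1.19 and -3.61, and Slc6a4, the serotonin transporter gene, at -6.66 and -9.55. Enterocytes also express several of these genes, and the lists share Slc18a1 and Slc18a2.

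Of the nutrient and signal sensors 9 of 14 were tested, with 5 lower and 1 higher in each of the spheroid comparisons with Halo-NLS. Slc5a1, the sodium-glucose transporter that enterocytes also carry, was at -5.13 and -9.53, Ffar4, a receptor of long-chain fatty acids, rose by 3.41 and 1.92, and Trpm5, a channel shared with tuft cells, was at -1.24 (edgeR adjusted p = 0.0383) and -1.41 (edgeR adjusted p = 0.0223). Receptors of the hormones themselves were little expressed: 6 of 19 were tested, and their summed level was 3.16 to 8.80 CPM in any library. Npy4r, a receptor of pancreatic polypeptide and peptide YY, had no count in Halo-NLS, 59 in SOX9-mEGFP spheroids and 209 in SOX9-Halo spheroids, at least 15.1-fold and 56.3-fold higher. Gipr was at -0.44 (edgeR adjusted p = 0.343) and -1.87 (edgeR adjusted p = 0.00144), and Sstr2 was at 1.42 (edgeR adjusted p = 0.0256) and -0.44 (edgeR adjusted p = 0.488).

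In the budding organoids the same lists had few calls, as did all genes tested. Over all genes, 0.763% were called lower and 1.99% higher in SOX9-mEGFP budding organoids against Halo-NLS. In SOX9-Halo budding organoids 1.26% were called lower and 2.49% higher, so the few calls are not read as particular to the lists. Against Halo-NLS, Maob was lower in SOX9-mEGFP, and Nucb2 was higher and Ffar4 lower in SOX9-Halo, with no other gene of the 8 lists called.

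**Figure D5:**
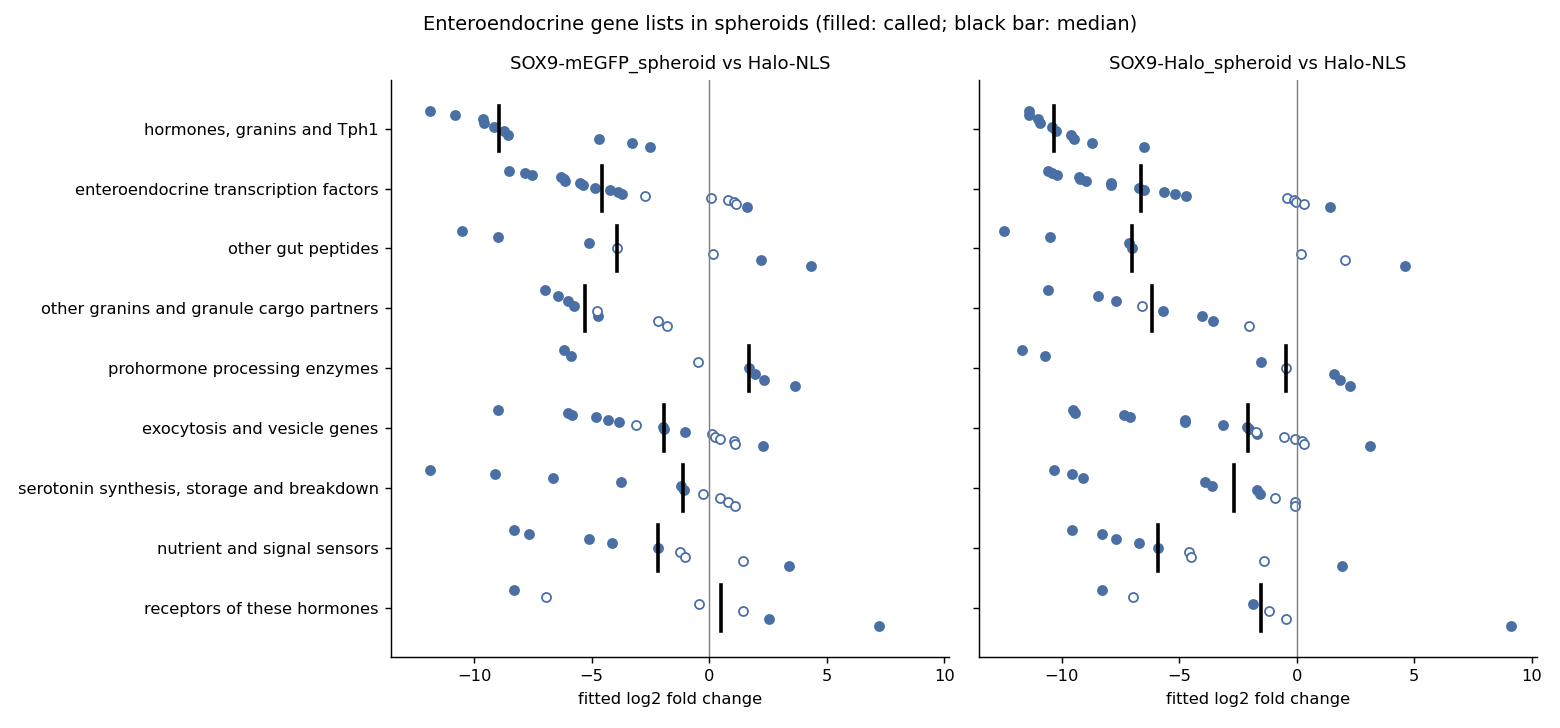
Log2 fold changes of the tested genes of each list in the spheroid comparisons with Halo-NLS, a point per gene, filled where called, and a bar at the median of the list. The members lie between -11.87 and -2.50 for SOX9-mEGFP and between -11.37 and -6.49 for SOX9-Halo spheroids, while processing enzymes lie on both sides of 0.

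Markers of other cell types moved in the same comparisons, and their part in the members' changes was not tested. Their calls against Halo-NLS stand beside 12.1% of all genes lower and 15.3% higher in SOX9-mEGFP spheroids. In SOX9-Halo spheroids the shares were 15.2% and 13.6%. The summed level of 6 enterocyte markers was 5540 to 9523 CPM in Halo-NLS, 906 to 1212 CPM in SOX9-mEGFP and 102 to 140.4 CPM in SOX9-Halo spheroids, with 5 and 6 of the 6 called lower than in Halo-NLS. That of 7 Paneth cell markers was 1679 to 2087 CPM, 1175 to 1421 CPM and 3.46 to 6.57 CPM. In SOX9-mEGFP spheroids this sum was mostly Mmp7, which was called higher (mean of 13.9 CPM in Halo-NLS and 1246 CPM in SOX9-mEGFP spheroids), while 5 of the 7 Paneth markers (Lyz1, Defa24, Defa17, Ang4 and Itln1) were called lower and the median log2 fold change of the list was -6.41. In SOX9-Halo spheroids all 7 were called lower, with a median of -10.01. The sum of 7 goblet cell markers was 2225 to 8065 CPM, 2266 to 3578 CPM and 19.8 to 26.7 CPM, with Zg16 at 0 in SOX9-Halo spheroids, and median log2 fold changes of -0.43 and -10.02. Tuft cell markers, 7 genes, summed to 5.09 to 8.72 CPM, 9.44 to 18.4 CPM and 90.7 to 96.4 CPM, with 2 of the 6 tested called lower and 1, Ptgs1, higher in both spheroids. Crypt base stem cell markers, 5 genes, summed to 181 to 493 CPM, 89.1 to 146 CPM and 97.7 to 149 CPM. Against Halo-NLS, Smoc2 was called lower and Lgr5 higher in SOX9-mEGFP spheroids. In SOX9-Halo spheroids Olfm4 and Smoc2 were called lower, and in each of these comparisons 3 of the 5 were not called. The median log2 fold changes were -0.87 and -1.10. Against budding organoids of the same line, Olfm4 and Smoc2 were called lower in SOX9-mEGFP spheroids, with a median of -0.30. In SOX9-Halo spheroids Lgr5, Olfm4 and Smoc2 were called lower than in their budding organoids, with a median of -2.04. None was called higher in these within-line comparisons. Markers of neurons and glia, 8 genes of which endocrine cells also express some, summed to 33.0 to 70.7 CPM in Halo-NLS and to at most 3.19 CPM in spheroids. Of these 8, 3 were tested: Tubb3 and Ret were called lower than in Halo-NLS in SOX9-mEGFP spheroids (median -3.25). In SOX9-Halo spheroids Ret alone was called lower (median -0.62). The 7 mesenchyme and immune markers summed to at most 3.37 CPM in any library.

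The epithelial label of the libraries was checked against 7 markers, where 12.1% of all genes were called lower in SOX9-mEGFP and 15.2% in SOX9-Halo spheroids. Against Halo-NLS, 2 of them (Cdx2 and Cdx1) were called lower in SOX9-mEGFP spheroids, with a median log2 fold change of -0.88. In SOX9-Halo spheroids 5 (Epcam, Vil1, Cdx2, Cdx1 and Krt20) were called lower, with a median of -3.58, and none was called higher in either. Epcam was at 0.08 in SOX9-mEGFP and at -1.11 in SOX9-Halo spheroids (log2 fold change against Halo-NLS), called in the latter, and Krt8 was at 0.69 (edgeR adjusted p = 0.023) and -0.48 (edgeR adjusted p = 0.0951). Cdx2, the transcription factor of intestinal identity, had a mean of 438 CPM in Halo-NLS, 76.8 CPM in SOX9-mEGFP and 2.69 CPM in SOX9-Halo spheroids (n = 3 each).

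Genes whose levels followed each member most closely over the 15 libraries were sought among 15687 genes by the correlation of log2 CPM. This measure is set mostly by the gap between organoids and spheroids, so the value over the 9 organoid libraries is given beside it. For Chga they were Oat (0.996, and 0.897 in organoids), Pbld1 (0.994, 0.858), Cyp2w1 (0.993, 0.919), the gene ENSMUSG00000130046 (0.993, 0.790) and Urad (0.993, 0.893). Urad was also the closest to Chgb (0.993, 0.598). The closest gene was Acsm5 for Gcg (0.993, 0.826), Tac1 for Cck (0.993, 0.863), Unc93a for Gip (0.996, 0.905), D630039A03Rik for Sct (0.989, 0.640), Acsl6 for Sst (0.986, 0.968), Ctss for Nts (0.987, 0.918), Or51e1 for Pyy (0.9499, 0.840) and Fev, the serotonergic transcription factor, for Tph1 (0.994, 0.752). Of these, Tac1 and Fev belong to the lists above.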

How the data were processed

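Poly-A RNA libraries made without strand information were sequenced by the authors, who trimmed reads with cutadapt 4.5, aligned them with STAR to mm39 and counted uniquely aligned reads per gene with HTSeq 2.0.2, per the submitters' processing notes. The values are counts, as the authors deposited them, for 78298 genes in each of 15 libraries; the authors' own comparisons in the 7 result tables (fold changes and p-values), and their table of normalized values, were not used. HTSeq's summary lines were left out of totals; reads on no gene came to 1.83% to 6.09% and ambiguous reads to 9.65% to 13.6%.

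Counts were fitted with edgeR 4.0.16 (R 4.3.3; quasi-likelihood, TMM scaling, filterByExpr by condition, 1 coefficient per condition, all 15 libraries, 10 residual degrees of freedom, common biological coefficient of variation 0.302). Adjusted p-values are Benjamini-Hochberg over 17560 genes. CPM use effective library sizes, TPM the exon length in GENCODE M39, which holds 78168 of the gene identifiers. Correlations used log2 CPM with a prior count of 2. Counting intervals are exact at 95%, floors are 3 counts over a group. The script was tested on simulated data. The members, lists and tests were chosen with earlier results of these data known. Named genes are the 10 members, the 3 genes of highest mean count in each list, the closest gene to each member (5 for Chga), and others of the lists that were chosen after their values were seen. Alternatives were other scalings, filters, thresholds, DESeq2 1.42.0, fits of only the libraries compared, a replicate block, and each library left out in turn. Same-numbered libraries deviated together in every pair (correlations 0.403, 0.234 and 0.345 over 11039 genes) for SOX9-Halo budding organoids and spheroids, where the pairing comes from the data and not the labels. In the other 9 pairs of conditions they did so for some replicate numbers at most, and not for all 3.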

Additional observations from a re-analysis of the deposited data

Results flagged for a closer look

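The fall of Sct from budding organoid to spheroid differed between the SOX9-Halo and SOX9-mEGFP lines by a test of the difference itself. The interaction was -6.94 on the log2 scale (SE 1.09, adjusted p = 0.000823, Benjamini-Hochberg, quasi-likelihood test of edgeR). Sct had 40, 19 and 20 counts in SOX9-mEGFP spheroids and 0 in all 3 SOX9-Halo spheroid libraries, with 385, 390 and 365 counts and 335, 332 and 130 counts in the budding organoids of these lines. The fitted size depends on the prior count, since 1 group is at 0. Neurog3, Insm1 and Cpe were also called lower in the interaction, and these genes were named after their values were seen. Such calls were not particular to endocrine genes. Lower in the interaction were also 5 of 7 goblet, 5 of 6 enterocyte and 4 of 7 Paneth cell markers, against 5.56% of all genes. None of these markers was called higher, while 1 of the 6 tuft cell markers tested, Ptgs1, was. No group of 4 or more samples existed in which a single library could be tested as an outlier.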

How the results depend on the processing

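Of the counts of called members under the alternatives, 287 were within 1.5 times the reported count and 15 were not. Depth limits the spheroid comparisons of Gcg, Sst, Pyy and Tph1, whose reads there number 3 or fewer per group. The count of members called higher in SOX9-mEGFP budding organoids against Halo-NLS was 2 at an adjusted p of at most 0.05, which adds Nts, and 0 to 1 with a library left out. The count called lower in SOX9-Halo against SOX9-mEGFP budding organoids was 0 with RLE size factors, 0 in a fit of only the libraries compared, and 0 to 1 with a library left out. The count called lower in SOX9-Halo against SOX9-mEGFP spheroids was 4 by DESeq2, 1 in a fit of only the libraries compared, in which only Chgb and Sct passed the filter, and 1 to 2 with a library left out. Pyy had no value in such a fit in 4 spheroid comparisons, nor with a replicate block within the SOX9-Halo line. The block is a term for the replicate number in the model: there, as in the fit of all 15 libraries, it changed no call other than that of Chga between spheroids (-2.77, edgeR adjusted p = 0.00952).

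None of the log2 differences that turned sign was called. With library sizes alone, which moved the median of all genes by 0.235 to 0.299 in comparisons with Halo-NLS, Chgb in SOX9-mEGFP budding organoids against Halo-NLS was at 0.060, and in SOX9-Halo budding organoids Chgb was at 0.059, Gip at 0.22 and Sct at 0.25. Without the filter, Sct was at 0.024 there. With RLE size factors Nts was at -0.020 there, and by DESeq2 at -0.015. With the replicate block, Chgb was at 0.017 in SOX9-mEGFP budding organoids against Halo-NLS, Sst at -0.30 and Nts at -0.018 in SOX9-Halo budding organoids against Halo-NLS, Chga at -0.032 between the budding organoids, and the interaction of Tph1 at 0.0047. With a library left out, differences from Halo-NLS in SOX9-mEGFP budding organoids ran from -0.54 to 0.35 for Chgb, -0.039 to 0.90 for Gcg and -0.34 to 0.41 for Cck. In SOX9-Halo budding organoids they ran from -0.56 to 0.29 for Chgb, -0.50 to 0.36 for Gip, -0.29 to 0.29 for Sct, -0.93 to 0.69 for Sst, -0.36 to 0.35 for Nts, -0.44 to 0.46 for Pyy and -0.89 to 0.0046 for Tph1. Between budding organoids they ran from -0.74 to 0.71 for Chga, -0.42 to 0.35 for Chgb, -0.31 to 0.72 for Gcg and -0.31 to 0.59 for Tph1. Between spheroids they ran from -0.17 to 0.93 for Gip and -2.57 to 0.58 for Tph1, and in the interaction from -0.22 to 3.46 for Gcg, -1.32 to 0.18 for Cck, -1.06 to 0.12 for Gip and -2.80 to 0.37 for Tph1. The cause of these changes was not tested. Over all genes, fits of only the libraries compared gave 65 genes called higher in SOX9-mEGFP budding organoids against Halo-NLS in place of 350.0, and 0 lower and 5 higher in SOX9-Halo budding organoids in place of 221 and 438.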
